A study of Mus musculus with 16 samples.

Results

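Spp1, C1qa, C1qb, C1qc, Apoe, Trem2, Lyz2, Mrc1, Adgre1 and Arg1 are genes commonly used to describe macrophages in mouse tumours. They were chosen by name: each symbol was matched to 1 mouse Ensembl identifier of a raw count table, which gave 10 of the 32697 genes in the table. The libraries came from YUMM1.7 tumours, grown from a transplantable mouse melanoma line in female mice to 200 to 350 mm3 and dispersed with collagenase. By the series' account the RNA is from sorted cDC1s, the type 1 conventional dendritic cells that present tumour antigen to CD8+ T cells, so macrophage genes are not the sorted population's own markers. The study addressed what cDC1s lose without Ikbkb, which encodes the NF-κB kinase IKKβ, or without Irf1, an interferon-induced transcription factor.

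Bulk RNA-seq was available for 4 groups of 4 libraries: Ikbkb controls (genotype label IKKbFF), Ikbkb-deleted (IKKbdeltaXCR1), Irf1 controls (IRF1FF) and Irf1-deleted (IRF1deltaXCR1). Both deletions are named after Xcr1, a chemokine receptor gene of cDC1s, and no group carries a deletion aimed at macrophages. Every group, controls included, bore YUMM1.7 tumours, and no other treatment is given for any of them. Growth and treatment notes describe the Ikbkb mice alone, and the Irf1 groups are known from the genotype label; strain and age are not given in the sources used here. Whether the libraries of a group came from separate mice is not stated, so p-values here measure the spread between libraries, which may be technical.

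C1qa, C1qb and C1qc encode the chains of C1q, the recognition protein of the classical complement pathway, which tissue macrophages make themselves. Spp1 encodes osteopontin, a secreted ligand of integrins and CD44; it is often used to mark a tumour macrophage state distinct from the C1q state, and it is also made by fibroblasts and tumour cells. Apoe encodes the lipid carrier apolipoprotein E, Trem2 a lipid-sensing receptor that signals through Tyrobp, Lyz2 the myeloid lysozyme, Adgre1 the surface protein F4/80, Mrc1 the mannose receptor CD206, and Arg1 arginase 1, which splits arginine into ornithine and urea.

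The C1q genes lie side by side on the minus strand of chromosome 4 (mm10): C1qb at 136880129 to 136886187, C1qc at 136889804 to 136893065 and C1qa at 136895917 to 136898803. Gaps of 3616 bases (C1qb to C1qc) and 2851 bases (C1qc to C1qa) separate them, and the locus spans 18675 bases. Spp1 lies on the plus strand of chromosome 5 at 104435118 to 104441050, Trem2 on the plus strand of chromosome 17 at 48346401 to 48354147, and Arg1 on the minus strand of chromosome 10 at 24915221 to 24927484. RefSeq promoters (GRCm38.p6) were found for 7 of the 10 genes, namely Spp1, C1qb, C1qc, Apoe, Trem2, Lyz2 and Mrc1; where a gene had several starts, the one nearest its GENCODE start was used. The 250 bases before the start are printed for Spp1, C1qb and Trem2, for the relation of Spp1 to the C1q genes and to Trem2 given further on. They read 5′ to 3′ on the strand of the gene, at chr5:104434861-104435110 (plus), chr4:136886201-136886450 (minus) and chr17:48346151-48346400 (plus), and capitals mark every match to the motifs described next.
Spp1: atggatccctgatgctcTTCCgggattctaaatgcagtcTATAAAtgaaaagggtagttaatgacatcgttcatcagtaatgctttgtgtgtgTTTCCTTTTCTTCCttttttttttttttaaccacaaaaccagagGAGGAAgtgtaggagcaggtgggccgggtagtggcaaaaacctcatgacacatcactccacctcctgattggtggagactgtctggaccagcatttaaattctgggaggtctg
C1qb: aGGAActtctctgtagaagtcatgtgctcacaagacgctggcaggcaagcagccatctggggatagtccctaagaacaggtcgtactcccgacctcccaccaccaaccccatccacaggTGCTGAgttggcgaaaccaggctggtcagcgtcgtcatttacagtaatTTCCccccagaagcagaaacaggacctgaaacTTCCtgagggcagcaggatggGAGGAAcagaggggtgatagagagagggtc
Trem2: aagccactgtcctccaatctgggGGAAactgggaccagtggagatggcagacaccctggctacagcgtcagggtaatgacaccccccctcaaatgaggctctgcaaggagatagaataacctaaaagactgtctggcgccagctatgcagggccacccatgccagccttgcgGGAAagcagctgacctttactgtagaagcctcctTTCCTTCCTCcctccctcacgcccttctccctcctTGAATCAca

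Both strands of the 7 windows and of 32851 promoter windows of the same length were searched. Of the 250 bases of a window, 151 in C1qc, 49 in Lyz2 and 22 in Mrc1 are annotated as exon of the gene itself. The ETS core GGAA, bound by the myeloid factor PU.1 and its relatives, was in 7 of 7 windows and in 93.4% of all. The longer PU.1-like form GAGGAA, which contains that core, was in 6 of 7 and in 23.3% of all, beginning 113 bases before the start of Spp1 and 30 bases before that of C1qb. The MAF site part TGCTGA was in 2 of 7 (C1qb and Lyz2) and 16.1% of all, and the AP-1 site TGANTCA in 1 of 7 (Trem2) and 6.75% of all. An interferon response element was in 1 of 7, on the minus strand of the Spp1 window 157 bases before the start and overlapping an ETS core, and in 2.98% of all. TATAAA was in 1 of 7 (Spp1, 211 bases before the start) and 12.4% of all, and an NF-κB site was in 0 of 7 and 0.356% of all. A match describes the letters of a window, not a bound site.

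Libraries held 16478671 to 27433818 counts in 18468 to 22900 genes. Levels are given as CPM, counts scaled to library size. The targeted gene Ikbkb averaged 64.8 CPM with floxed alleles (44.5 to 121) against 37.4 CPM after its deletion (28.5 to 46.3), and Irf1 averaged 199 CPM (141 to 268) against 166 CPM (98.6 to 299). Both pairs of groups overlapped, and neither change passed the edgeR test. Both cDC1 and macrophage genes were present in every library. The sum of 12 cDC1 genes ran from 801.5 to 8606 CPM, with the highest sums in Ikbkb-deleted 1 (8606) and Ikbkb control 3 (8185), and the sum of 20 macrophage markers outside the 10 genes ran from 1496 to 3448 CPM, with 1 marker under 1 CPM on average. The sum of 10 fibroblast genes ran from 4444 to 29390 CPM, while 8 of 9 melanoma genes were under 1 CPM on average. In bulk libraries, fewer cells of a type and less RNA per cell cannot be told apart.

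Spp1 was the most abundant of the 10 genes per kilobase of exon and varied least. Its level was 2933 CPM per kilobase on average, rank 10 among 16040 tested genes. Lyz2 followed at 935 CPM per kilobase (rank 24), Apoe at 801 (rank 30), C1qb at 534.5 (rank 58), C1qa at 267 (rank 160) and C1qc at 162 (rank 313). Adgre1 (27.7), Arg1 (25.2), Mrc1 (7.39) and Trem2 (6.71 CPM per kilobase) were much lower. The SD of the log2 level of Spp1 over 16 libraries was 0.43, beside a median of 0.66 over all tested genes, and 23.8% of tested genes had a lower one. For Arg1, the other extreme, it was 2.36, and 98.3% had a lower one.

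Levels of Spp1 were 4437, 4334, 3854 and 4852 CPM in the Ikbkb controls, then 2264, 4834, 6128 and 3851 CPM with Ikbkb deleted. They were 5853, 3397, 7702 and 5318 CPM in the Irf1 controls, then 4490, 7299, 4154 and 4583 CPM with Irf1 deleted. All groups overlapped; Ikbkb-deleted 1 was the lowest library and Irf1 control 3 the highest, 3.40-fold apart. By mean ± SD (n = 4) the order was Irf1 control at 5567 ± 1771, Irf1-deleted at 5131 ± 1457, Ikbkb control at 4369 ± 410.0 and Ikbkb-deleted at 4269 ± 1630 CPM, and no neighbours in this order differed beyond their spread. An unclassified transcript, Gm42793, shares 309 exonic bases with Spp1 on the same strand and was at 1.72 CPM on average.

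**Figure D1:**
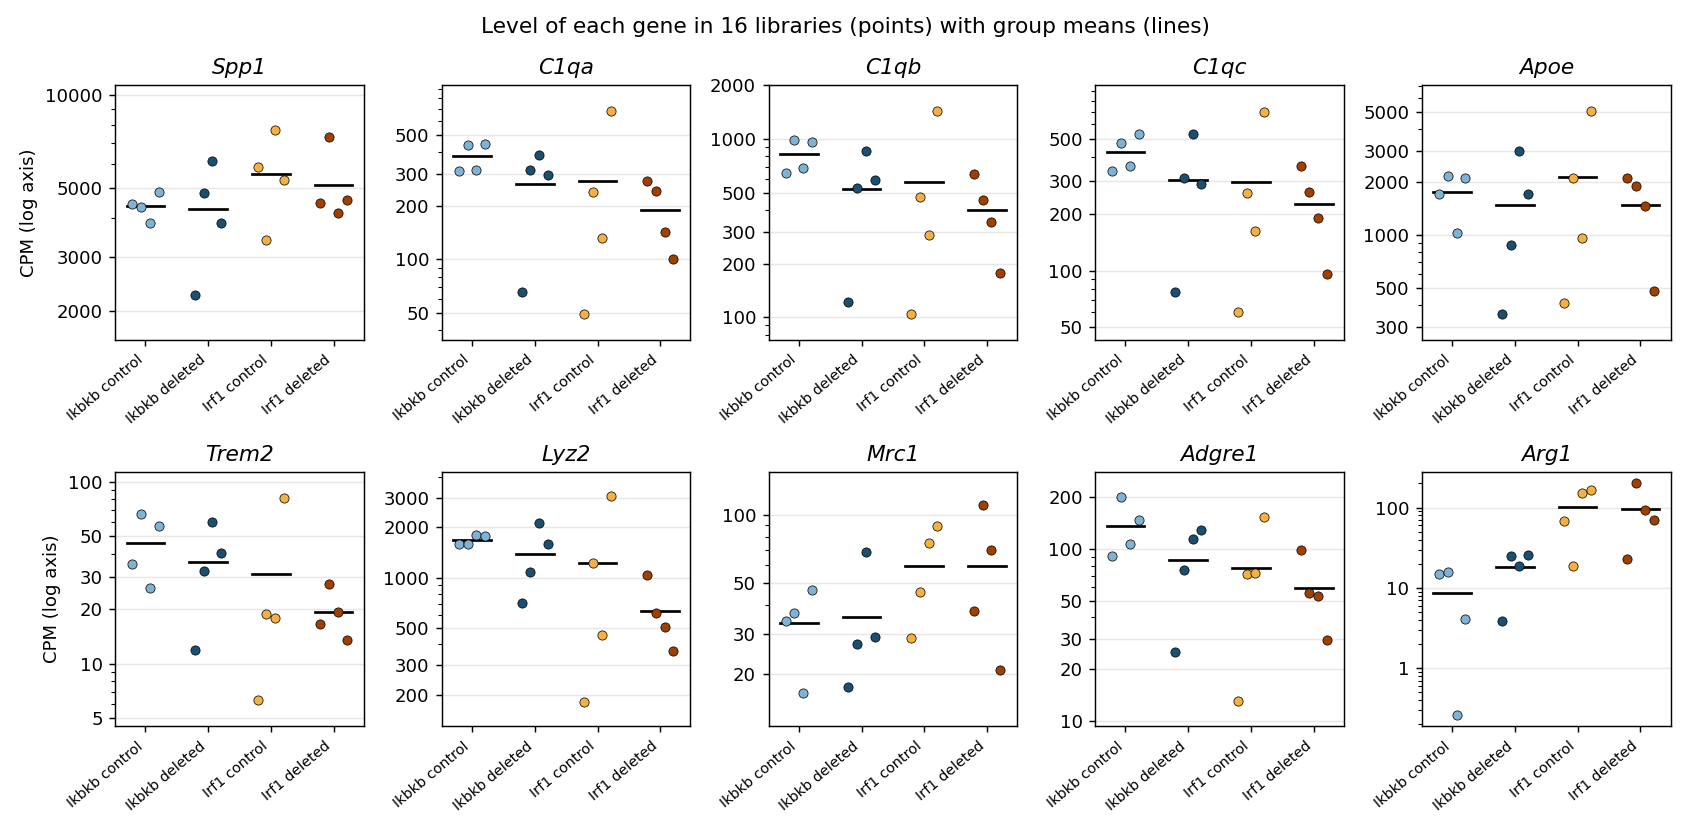
Level of each of the 10 genes in CPM (log axis) in the 4 groups; each point is a library and each line a group mean. Spp1 stays between 2264 and 7702 CPM, the C1q genes have their lowest and highest libraries within the Irf1 controls, and the Arg1 levels of the Irf1 controls all lie above those of the Ikbkb controls.

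The C1q genes varied far more than Spp1. C1qb was at 646, 991, 688 and 959 CPM among Ikbkb controls and at 122, 531, 861 and 591 CPM among Ikbkb-deleted libraries. Among Irf1 controls it was at 105, 472, 291 and 1438 CPM, and with Irf1 deleted at 636.5, 454, 341 and 178 CPM. The Ikbkb controls had the highest mean (821 ± 179, SD, n = 4), while the Irf1 controls (576.5 ± 594) held both the lowest and the highest of all 16 libraries, 13.7-fold apart. Ikbkb-deleted (526 ± 305) and Irf1-deleted (402 ± 193) came after them, no neighbours differed beyond their spread, and all groups overlapped.

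C1qa and C1qc followed C1qb. Group means of C1qa were 379 ± 73.7, 267 ± 139.5, 275 ± 281 and 191 ± 82.5 CPM (SD, n = 4) for Ikbkb control, Ikbkb-deleted, Irf1 control and Irf1-deleted, and those of C1qc 428 ± 93.2, 302.5 ± 186, 294.5 ± 279 and 226 ± 111 CPM. Irf1 control 1 was the lowest library for both (C1qa 49.7, C1qc 60.1 CPM) and Irf1 control 4 the highest (681 and 694 CPM), as for C1qb. On the scale of CPM per kilobase, C1qb made up 55.0 ± 1.85% of the summed C1q level (SD, 16 libraries), C1qa 28.0 ± 1.95% and C1qc 17.1 ± 1.12%. The share of C1qb stayed within 51.2 to 57.7% while the levels ranged 11.6-fold (C1qc) to 13.7-fold.

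Apoe and Trem2, the lipid genes, peaked in the same library. Apoe was at 1715, 2148, 1020 and 2115 CPM among Ikbkb controls and 355, 871, 3000 and 1706 CPM among Ikbkb-deleted libraries; Irf1 controls gave 408, 2099, 964 and 5077 CPM and Irf1 deletion 2095, 1889, 1460 and 476.5 CPM. Trem2 was at 35.5, 66.5, 25.9 and 57.3 CPM among Ikbkb controls and 11.9, 32.4, 59.9 and 40.7 CPM among Ikbkb-deleted libraries; Irf1 controls gave 6.33, 18.9, 17.8 and 81.1 CPM and Irf1 deletion 16.5, 27.5, 19.2 and 13.5 CPM. Irf1 control 4 was the highest library for both genes, and the groups overlapped.

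Lyz2 was steady among Ikbkb controls, at 1579, 1585, 1809 and 1783 CPM, and at 703, 1088, 2117 and 1593 CPM with Ikbkb deleted. Irf1 controls gave 181, 1221, 452 and 3068 CPM and Irf1 deletion 1032, 612, 506 and 364 CPM. The Irf1 controls again held both extremes, 17.0-fold apart. Its close paralog Lyz1 was at 5.29 CPM on average (1.03 to 14.2), and how reads shared by both were counted is not given in the sources used here, so the level of Lyz2 is uncertain to that extent. Adgre1 ranged 15.3-fold, from 13.1 CPM in Irf1 control 1 to 199.8 CPM in Ikbkb control 2, with means of 136 ± 48.6, 85.7 ± 45.9, 77.5 ± 57.7 and 59.2 ± 28.7 CPM for Ikbkb control, Ikbkb-deleted, Irf1 control and Irf1-deleted.

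Mrc1 and Arg1, often used for alternatively activated macrophages, had their highest library in Irf1-deleted 2. Mrc1 ranged 6.70-fold, from 16.5 CPM in Ikbkb control 3 to 110 CPM in Irf1-deleted 2, with means of 33.5 ± 12.5, 35.6 ± 22.7, 59.7 ± 27.5 and 59.6 ± 39.4 CPM in the same order of groups. Arg1 was at 14.7, 15.9, 0.263 and 4.05 CPM among Ikbkb controls and 3.89, 25.0, 18.7 and 25.4 CPM among Ikbkb-deleted libraries; Irf1 controls gave 68.5, 18.7, 151 and 165 CPM and Irf1 deletion 22.9, 200.3, 94.5 and 69.5 CPM. Irf1 control 4, where C1q, Apoe, Trem2 and Lyz2 peaked, was the second highest for Arg1. Every Irf1 control was above every Ikbkb control, and each deleted group overlapped with its own controls. The lowest value, in Ikbkb control 3, was a count of 5.

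After Ikbkb deletion none of the 10 genes passed the test (edgeR quasi-likelihood, Benjamini-Hochberg adjusted p = 1 for each). Of all 16040 tested genes 0% passed, and none of the 10 was among the 769 genes (4.79%) at an unadjusted p under 0.05. The log2 change was −0.03 (SE 0.29, 95% interval −0.64 to 0.57) for Spp1 and −0.64 (SE 0.64, −2.01 to 0.73) for C1qb; C1qa was at −0.51 (SE 0.62) and C1qc at −0.50 (SE 0.62). The interval of Spp1 was the narrowest of the 10. Apoe was at −0.24, Trem2 at −0.35, Lyz2 at −0.30, Adgre1 at −0.67, Mrc1 at 0.09 and Arg1 at 1.06 (SE 0.90, −0.86 to 2.97). The sizes moved with single libraries: without Ikbkb-deleted 1 C1qa was at −0.18, C1qb at −0.31, C1qc at −0.18, Trem2 at −0.061, Lyz2 at −0.077 and Adgre1 at −0.36. With 8 changes negative and 2 positive, the median was −0.33, beside −0.018 over all tested genes. None of the 10 had groups without overlap, as 1.7% of tested genes did. DESeq2 called 38 genes and limma voom with quality weights 0, none of them among the 10.

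After Irf1 deletion none of the 10 genes passed either (edgeR quasi-likelihood, adjusted p = 1 for each). Of all tested genes 0% passed, and none of the 10 was among the 419 (2.61%) at an unadjusted p under 0.05; DESeq2 called 6 genes and limma voom 0, none of them among the 10. The log2 change was −0.12 (SE 0.29, −0.72 to 0.49) for Spp1, −0.53 (SE 0.62) for C1qa, −0.52 (SE 0.64) for C1qb and −0.38 (SE 0.62) for C1qc. Apoe was at −0.53, Trem2 at −0.69, Lyz2 at −0.97 (SE 0.61, −2.26 to 0.33), Adgre1 at −0.39, Arg1 at −0.06 and Mrc1 at −0.00258. None had groups without overlap, as 2.89% of tested genes did.

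All 10 changes after Irf1 deletion were negative, with a median of −0.45 beside −0.015 over all tested genes, and this direction rested on 1 library. Without Irf1 control 4, 9 of 10 were positive: C1qa 0.44, C1qb 0.48, C1qc 0.49, Apoe 0.36, Trem2 0.42, Lyz2 0.024, Mrc1 0.26, Adgre1 0.18 and Arg1 0.29, with Spp1 at −0.14. Limma voom with quality weights also gave positive values for those 9 genes, from 0.29 (Arg1) to 0.69 (C1qc). In the test of the difference between both deletions none of the 10 passed (edgeR adjusted p = 1 for each); 0% of tested genes passed, 455 (2.84%) were at an unadjusted p under 0.05, and DESeq2 called 12 and limma voom 0. The differences ran from −1.12 for Arg1 to 0.28 for Adgre1.

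The floxed controls of both sets were then compared. Of the tested genes 12.6% passed (edgeR, adjusted p under 0.05), 1081 (6.74%) as higher and 937 (5.84%) as lower in the Irf1 controls, and 28.3% were at an unadjusted p under 0.05. Arg1 alone passed among the 10. Its mean was 8.73 ± 7.77 CPM among Ikbkb controls and 101 ± 69.2 CPM among Irf1 controls (SD, n = 4), 11.5-fold higher (95% interval 2.74 to 48.3; log2 difference 3.52, SE 0.97, edgeR adjusted p = 0.0295). It was also the only one whose control groups did not overlap; 17.5% of tested genes had none, 10.3% with the Irf1 controls higher. Genotype and set of libraries cannot be told apart in this comparison.

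The Arg1 call was not stable. It was lost in a fit of these groups alone (3.51, edgeR adjusted p = 0.0673), with limma voom (3.04, adjusted p = 0.105), without Ikbkb control 4 (3.29, edgeR adjusted p = 0.0757) and without Irf1 control 3 (3.26, edgeR adjusted p = 0.0755), and DESeq2 kept it (adjusted p = 0.00268). Between the deleted groups, a comparison added after the control levels were seen, Arg1 was at 2.41 (SE 0.93, edgeR adjusted p = 0.116). There 8.58% of tested genes passed, 25.4% were at an unadjusted p under 0.05 and 17.9% had no overlap, while the lowest Irf1-deleted library (22.9 CPM) lay under 2 Ikbkb-deleted libraries (25.0 and 25.4 CPM).

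**Figure D2:**
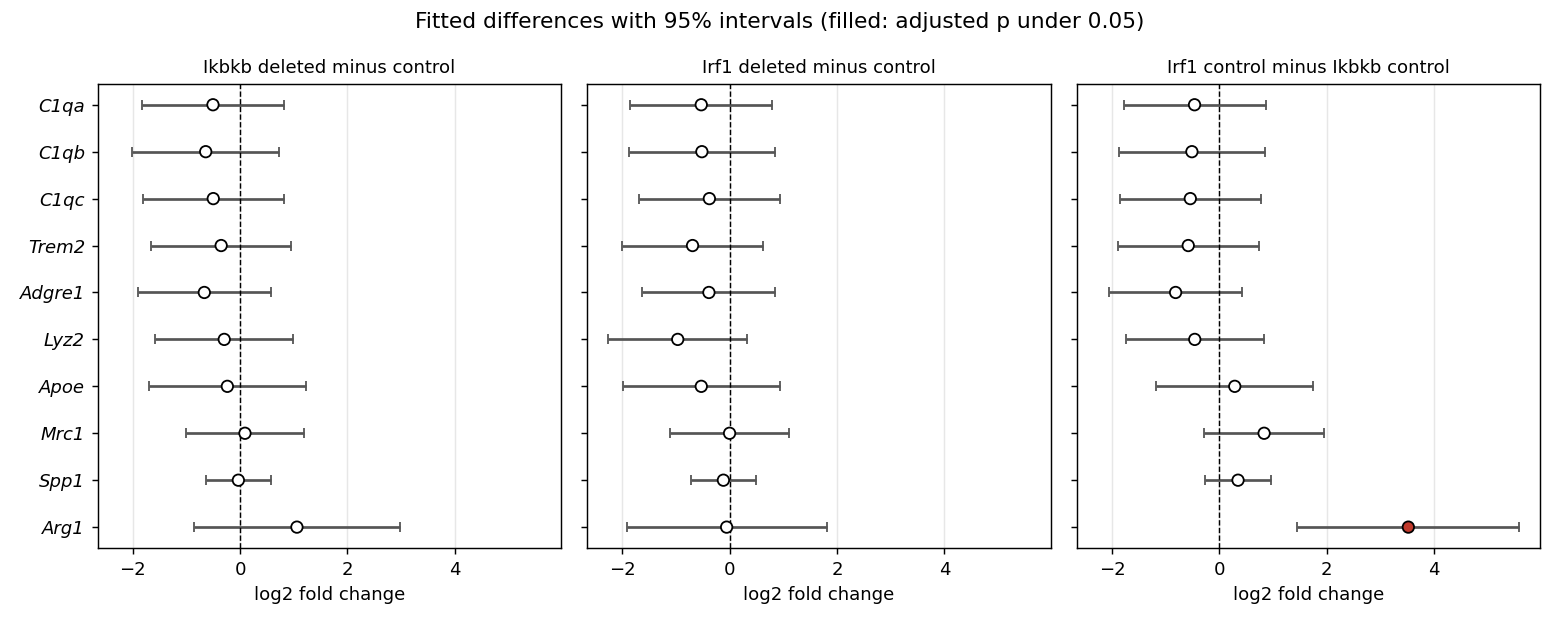
Log2 difference of each of the 10 genes (points) with its 95% interval (bars) for Ikbkb deletion, Irf1 deletion and Irf1 control minus Ikbkb control; a filled point passed the edgeR test at an adjusted p under 0.05. Every interval of both deletions includes 0, and Arg1 at 3.52 between the controls is the filled point.

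For the other 9 genes no difference between the controls passed the edgeR test. Spp1 was at 0.35 (SE 0.29, edgeR adjusted p = 0.459), Mrc1 at 0.84 (SE 0.52, 0.318) and Apoe at 0.29; C1qa, C1qb and C1qc were at −0.46, −0.51 and −0.54, Trem2 at −0.58, Lyz2 at −0.46 and Adgre1 at −0.81. These sizes turned on single libraries. Without Irf1 control 4 they were −1.43, −1.50, −1.41, −1.69, −1.45 and −1.38 in the same order, and Trem2 passed (edgeR adjusted p = 0.0439). Without Irf1 control 1 they were −0.11, −0.16, −0.20, −0.24, −0.096 and −0.46, and none of the 6 passed. Limma voom, which weights libraries by how well they fit, called 6 of them lower in the Irf1 controls: C1qa (−1.68, adjusted p = 0.0356), C1qb (−1.72, 0.0354), C1qc (−1.62, 0.0389), Trem2 (−1.82, 0.0129), Lyz2 (−1.78, 0.0267) and Adgre1 (−1.78, 0.0339). Among all 16040 tested genes voom called 4130 in this comparison, in either direction, beside 2018 with edgeR. For each of the 6 the groups overlapped, and for all but Adgre1 Irf1 control 4 was above every Ikbkb control.

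Some markers of other cells also differed between the controls, beside a background of 6.74% of tested genes higher and 5.84% lower (edgeR). Of 10 fibroblast genes 7 passed as higher in the Irf1 controls and 0 as lower (edgeR), among them Postn (2.18), Col3a1 (1.78), Lum (1.59) and Col1a1 (1.51), and their sum was 6732 ± 70.9 CPM among Ikbkb controls but 19910 ± 8315 CPM among Irf1 controls. Of 7 tested neutrophil genes 1 passed, Mmp9 (1.63), while 5 were positive and 2 negative. A single call in a list this short was not tested against the background. The neutrophil sum was 191 to 357 CPM among Ikbkb controls but 477 to 953 CPM among Irf1 controls, and 4 of 10 neutrophil genes were at 0 in 8 or more libraries. With the fibroblast sum as a covariate, a fit added after the data were seen, Arg1 was at 3.04 (edgeR adjusted p = 0.436) and 0 genes passed in all. Every Irf1 library had a higher sum (9780 to 29390 CPM) than every Ikbkb library (4444 to 8989 CPM). That fit therefore cannot separate the sum from the set of libraries, and the loss of calls says nothing about fibroblast content. Over 16 libraries Arg1 rose with the fibroblast sum (r = 0.63, rho = 0.73, permutation adjusted p = 0.0329 and 0.0114; r = 0.56 without the 2 libraries farthest in that sum), but r was −0.0092 within the Ikbkb set and 0.15 within the Irf1 set, so the relation did not hold within the sets. With the neutrophil sum r was 0.71 (rho = 0.76, permutation adjusted p = 0.0098 and 0.00767; 0.65 without the 2 farthest libraries), again lower within the sets (0.27 and 0.31). Arg1 went against the B cell sum, its strongest relation with a marker sum (r = −0.86, rho = −0.77, permutation adjusted p = 0.000333 and 0.00633; −0.71 without the 2 farthest libraries), with r of −0.86 within the Ikbkb set and −0.57 within the Irf1 set (exact permutation, adjusted p = 0.127 and 0.493). With the T and NK cell sum r was −0.69 (rho = −0.56, permutation adjusted p = 0.0161 and 0.0852; −0.47 without the 2 farthest libraries), −0.79 within the Ikbkb set and −0.15 within the Irf1 set.

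**Figure D3:**
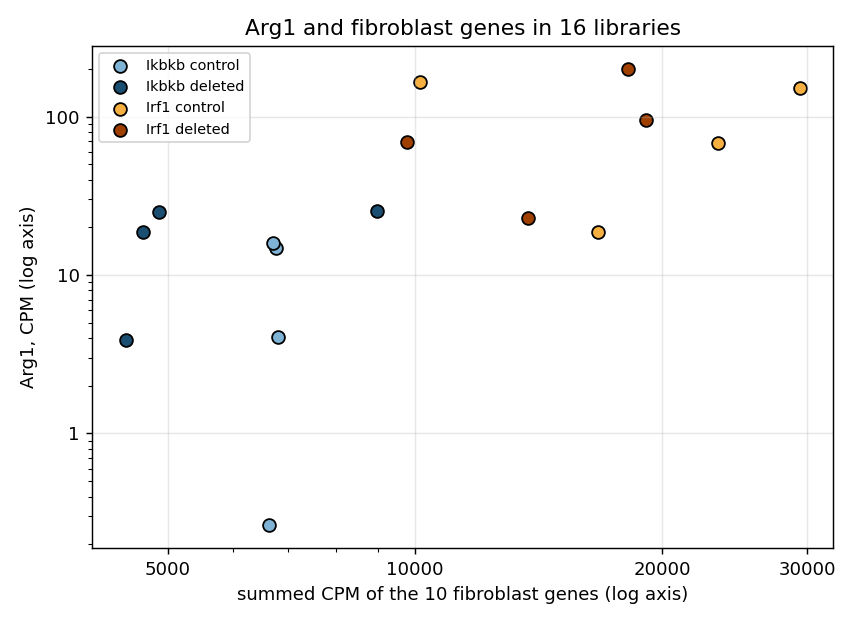
Arg1 against the summed level of 10 fibroblast genes, both in CPM on log axes; each point is a library, coloured by group. Irf1 libraries lie at higher fibroblast sums than Ikbkb libraries, and within either set Arg1 shows no trend with the sum (r of −0.0092 and 0.15).

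Across the 16 libraries no relation of Spp1 with a C1q gene was detected. Pearson's r of the log2 levels was 0.15 with C1qa, 0.17 with C1qb and 0.18 with C1qc (permutation test, adjusted p = 0.638 for each over the 9 relations of Spp1), and Spearman's rho was 0.12, 0.026 and 0.13. Of all tested genes, 34.3% had a higher r with Spp1 than C1qa had, 32.2% than C1qb and 31.4% than C1qc. Without Ikbkb-deleted 1 and Irf1 control 3, the 2 libraries farthest from the median of Spp1, r was −0.082, −0.097 and −0.049. The ratio of Spp1 to C1qb counts ran from 3.70 in Irf1 control 4 to 55.9 in Irf1 control 1, both of the same group.

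The sets of libraries gave different values. Within the 8 Ikbkb libraries r was 0.89 with C1qa, 0.87 with C1qb and 0.915 with C1qc (exact permutation test, adjusted p = 0.0378, 0.0442 and 0.0378), with rho of 0.76, 0.5 and 0.76 (adjusted p = 0.1375, 0.324 and 0.1375). These rested on Ikbkb-deleted 1, which had the lowest Spp1 level, the lowest macrophage marker sum (1496 CPM) and the highest cDC1 sum: without it r was 0.46, 0.34 and 0.62 (exact permutation p = 0.3, 0.471 and 0.122). Within the 8 Irf1 libraries r was −0.13, −0.14 and −0.13 (exact permutation test, adjusted p = 0.92). The difference between the sets was not tested.

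**Figure D4:**
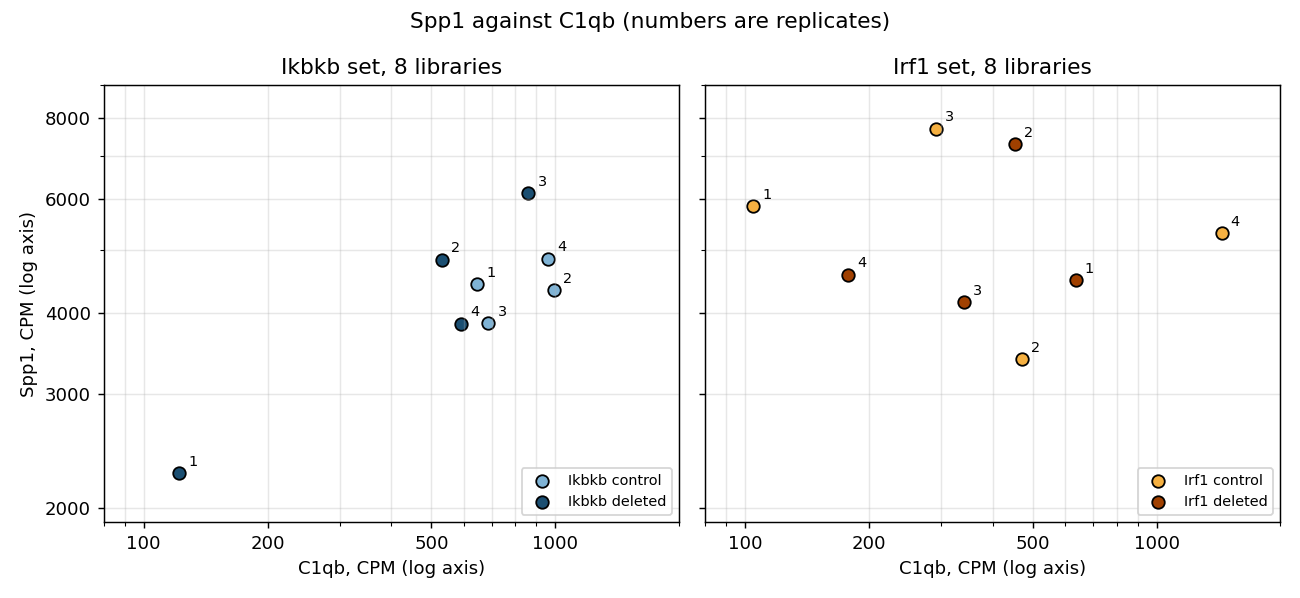
Spp1 against C1qb in CPM on log axes in the Ikbkb set and the Irf1 set of 8 libraries each; numbers are replicates and colours are groups. Ikbkb-deleted 1 (122 CPM of C1qb, 2264 of Spp1) lies alone at the lower left, and in the Irf1 set C1qb spreads 13.7-fold with no trend in Spp1.

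With Mrc1 and Arg1 the values of Spp1 were higher. For Mrc1 r was 0.655 (permutation p = 0.00452, adjusted p = 0.0407) and rho 0.55 (adjusted p = 0.154), with 0.79 in the Ikbkb set and 0.43 in the Irf1 set; r was 0.53 (permutation, adjusted p = 0.374) without the 2 farthest libraries, where the call was lost. It also missed the threshold in 10 of 16 leave-outs of 1 library, in which r was 0.58 to 0.71. For Arg1 r was 0.59 (permutation p = 0.019, adjusted p = 0.0854) and rho 0.54, with 0.35 in the Ikbkb set and 0.77 in the Irf1 set (exact permutation, adjusted p = 0.238). Taken as deviations from the group means, r was 0.59 for Arg1 (exact permutation within groups, adjusted p = 0.0483; rho = 0.54, adjusted p = 0.193) and 0.59 for Mrc1 (adjusted p = 0.176). Of all tested genes 0.748% had a higher r with Spp1 than Mrc1 and 1.81% than Arg1.

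Among the other 9 genes, 23 of 36 pairs passed the permutation test over 16 libraries. All 21 pairs of C1qa, C1qb, C1qc, Apoe, Trem2, Lyz2 and Adgre1 were among them, a grouping made after the values were seen, with r from 0.75 (Apoe and Lyz2) to 0.995 (C1qb and C1qc). Within each set of 8 libraries the same 21 pairs passed by Pearson's r, but by Spearman's rho 6 of them passed in the Ikbkb set and 15 in the Irf1 set (exact permutation, adjusted over 36 pairs), against 21 over 16 libraries. The lowest rho was 0.48 (C1qa and Lyz2) in the Ikbkb set and 0.55 (Trem2 and Adgre1) in the Irf1 set. Apoe with Mrc1 (r = 0.66, rho = 0.63, permutation adjusted p = 0.00895) and Mrc1 with Arg1 (r = 0.66, rho = 0.58, adjusted p = 0.00694) were the others; without the 2 farthest libraries they were at 0.58 and 0.53. Arg1 was at −0.16 with C1qb and −0.41 with Lyz2. All pairs share libraries, depth and cell content.

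**Figure D5:**
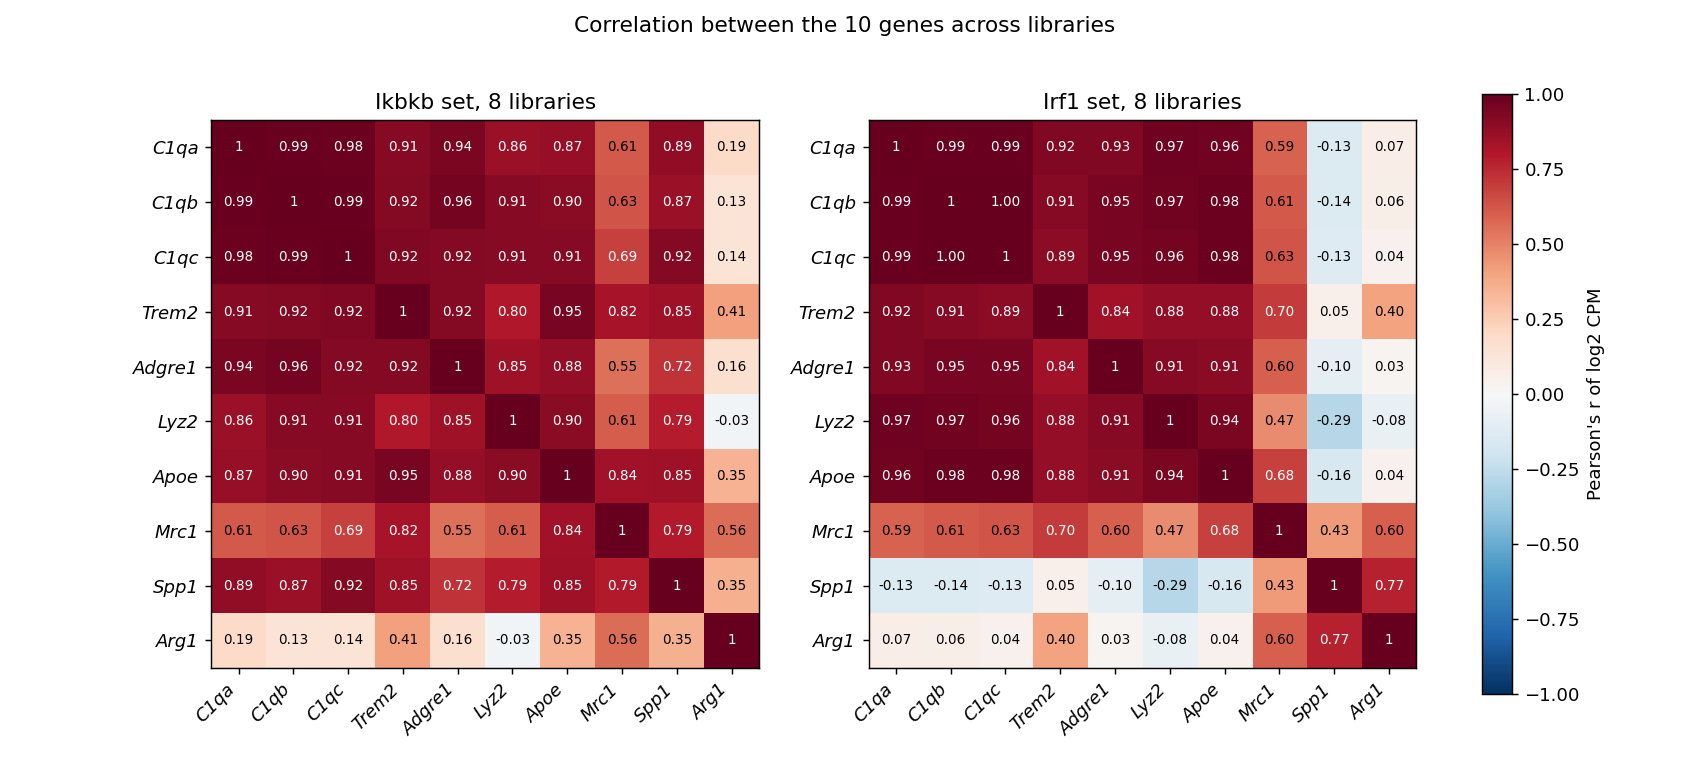
Pearson's r of log2 CPM for all pairs of the 10 genes in the Ikbkb set (left) and the Irf1 set (right) of 8 libraries each; colour gives r from −1 to 1. The 7 genes from C1qa to Apoe are high with each other in both sets, and the Spp1 row is high in the Ikbkb set (0.89 with C1qa) and near or below 0 for those genes in the Irf1 set (−0.13 with C1qa).

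The 7 genes also followed the macrophage markers outside the 10. With the sum of those markers r was 0.85 for C1qa, 0.88 for C1qb, 0.88 for C1qc, 0.89 for Apoe, 0.88 for Trem2, 0.73 for Lyz2 and 0.84 for Adgre1; for C1qb rho was 0.86 (permutation adjusted p = 0.00025 for r over 100 relations with marker sums), and r was 0.87 without the 2 libraries farthest in the sum. Mrc1 was at 0.55 (permutation adjusted p = 0.0879), Spp1 at 0.38 (0.28) and Arg1 at 0.014. Spp1 went against the cDC1 sum, with r of −0.74 and rho of −0.55 (permutation adjusted p = 0.00942 and 0.0852), −0.59 without the 2 libraries richest in cDC1 genes, −0.69 within the Ikbkb set and −0.80 within the Irf1 set. In the Ikbkb set it did not pass (exact permutation, adjusted p = 0.221, and 0.837 for a rho of −0.45). That set holds Ikbkb-deleted 1, the lowest library in Spp1 and the highest in the cDC1 sum. The within-set values are descriptions, and whether the relation follows the share of cDC1s in a library was not tested. Mrc1 (−0.70) and Arg1 (−0.68) also went against the cDC1 sum (permutation adjusted p = 0.0126 and 0.0201). They were at −0.48 and −0.26 without the 2 libraries richest in cDC1 genes, and for Arg1 r was −0.67 within the Ikbkb set and −0.83 within the Irf1 set. For C1qb r with the cDC1 sum was −0.20, −0.70 in the Ikbkb set and 0.17 in the Irf1 set.

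Among 9465 genes of sufficient level, those most like Spp1 over 16 libraries were Nxn (r = 0.826), Rnase4 (0.822), Hmox1 (0.816, heme oxygenase 1), Pla2g7 (0.814, a secreted phospholipase) and Med4 (0.812, a Mediator subunit). Rnase4 was at 0.909 in the Ikbkb set and 0.952 in the Irf1 set. Those most like the mean of the C1q genes were Fcgr3 (0.963, a low-affinity IgG receptor), Clec4n (0.962, the fungal receptor dectin-2), Pilra (0.962), Ms4a7 (0.96) and Clec4a2 (0.957). These are descriptions with no test.

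No gene of the 16 pathway and cell type lists passed in either deletion (edgeR, 0% of all tested genes). The median change was −0.585 for 18 complement genes after Ikbkb deletion and −0.54 after Irf1 deletion, −0.28 and −0.23 for 19 macrophage markers, −0.10 and 0.085 for 16 genes of Trem2 signalling and lipid handling, 0.026 and −0.14 for 9 osteopontin receptor genes, −0.35 and −0.057 for 8 apolipoprotein E receptor genes and 0.1 and 0.15 for 10 arginine genes. All tested genes were at −0.018 and −0.015. These medians come from the fit of all 16 libraries, with none left out. The complement sum was 685.8 to 1879 CPM among Ikbkb controls, highest in Ikbkb control 3, and 629.3 to 987.9 CPM with Ikbkb deleted. It was 935.1 to 1361 CPM among Irf1 controls and 474.5 to 971.8 CPM with Irf1 deleted, so the groups overlapped in both sets.

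Between the controls some partners of these genes passed, beside a background of 6.74% higher and 5.84% lower. Of the osteopontin receptors 3 of 9 were higher in the Irf1 controls and 0 lower: the integrin chains Itga8 (2.46, edgeR adjusted p = 0.0163), Itgb5 (1.13, 0.0292) and Itgb3 (1.11, 0.0486). Called or not, 6 of the 9 were positive and 3 negative. Of the complement genes 3 of 18 were higher and 1 lower, while 9 were positive and 9 negative, with a median of 0.128. C3, the central complement protein, went from 38.6 ± 28.8 CPM among Ikbkb controls to 258 ± 119 CPM among Irf1 controls (SD, n = 4; 2.74, SE 0.82, edgeR adjusted p = 0.0404); the C1 protease C1s1 was at 1.16 (0.0402) and the regulator Cr1l at −0.63 (0.0425).

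Of the apolipoprotein E receptor genes 2 of 8 were higher and 0 lower in the Irf1 controls: the receptor Lrp1, at 268 ± 126 and 950.0 ± 202 CPM (1.83, SE 0.44, edgeR adjusted p = 0.0173), and its chaperone Lrpap1 (0.65, 0.0423). Called or not, 5 of the 8 were positive and 3 negative, with a median of 0.087. Of the Trem2 and lipid genes 1 of 16 was higher, the cholesterol exporter Abca1 (1.19, SE 0.27, edgeR adjusted p = 0.0139), and 2 were lower, galectin 3 (Lgals3, −1.12, 0.0384) and the tetraspanin Cd9 (−0.85, 0.0161). Called or not, 5 of the 16 were positive and 11 negative, with a median of −0.304. Of the arginine genes 0 of 10 were higher and 1 lower. That gene was Odc1, ornithine decarboxylase, which uses the ornithine made by arginase: it was at 218 ± 28.1 and 87.8 ± 8.14 CPM (−1.31, SE 0.20, edgeR adjusted p = 0.00505), opposite in sign to Arg1. Of the macrophage markers 0 of 19 passed, with the most abundant, Axl and Selenop, at 0.083 and −0.75. The median of the 19 was 0.175, with 12 positive and 7 negative. Of the hypoxia genes 2 of 12 were lower (the glycolytic Ldha −0.94 and Pgk1 −0.91). Among these 12 genes 7 were positive and 5 negative, with a median of 0.201, beside −0.0053 over all tested genes. The fibroblast sum differed between the same groups, as given above. With it as a covariate 0 genes passed in all, in a fit that cannot separate the sum from the set of libraries.

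Of the lists for other cells, 2 of 10 monocyte genes were higher in the Irf1 controls, Vcan (2.03, edgeR adjusted p = 0.00942) and Fn1 (1.84, 0.025), which encode matrix proteins, and 1 was lower, Nr4a1 (−3.27, 0.00779). Those 2 were the only positive monocyte genes: 8 were negative, and the median of the list was −0.94. Of 8 endothelial genes 2 were higher, the receptor Tek (4.70, edgeR adjusted p = 0.0264) and the cadherin Cdh5 (2.11, 0.0377), and of 6 tested B cell genes 1 was lower, the immunoglobulin chain Ighm (−2.17, 0.0442). None passed among 12 cDC1 genes (most abundant Irf8, −1.14, and Ppt1, −0.92), 7 cDC2 genes (Sirpa, 0.29, and Mgl2, 1.13), 13 T and NK cell genes (Gzmb, −1.64, and Nkg7, −1.31) or 3 tested melanoma genes (Mitf, 0.60, and Pmel, −0.55). The 7 cDC2 genes had a median of −0.0044, with 3 positive and 4 negative.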

How the data were processed

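The authors deposited 1 table of raw counts per Ensembl gene for 16 libraries. Reads were handled with STAR 2.5.3a, HTSeq 0.6.1p1, cutadapt 1.10 and bcl2fastq 2.17.1.14 on mm10, per the submitters' processing notes; annotation release and strand setting are not given in the sources used here. Libraries were made from 1000 pg of RNA with 12 and then 12 cycles of PCR, per the labels' protocols, so counts are not independent molecules.

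Identifiers were matched to GENCODE M21 symbols and positions (32684 of 32697). All 16 libraries were fitted together with edgeR 4.0.16 (quasi-likelihood, R 4.3.3) after TMM scaling and filterByExpr (minimum count 10, total 15); 16040 genes were tested, all 10 among them, and p-values were Benjamini-Hochberg adjusted over these with a threshold of 0.05. Levels are TMM-scaled CPM; log2 CPM used a prior count of 2. Correlations used 100000 permutations over 16 libraries and exact permutations in sets of 8, with p adjusted over the relations of each family. Alternatives were RLE and upper-quartile scaling, other filters, DESeq2 1.42.0, limma voom 3.58.1, fits of the groups compared and leaving out each library.

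The members and lists were chosen with earlier results of these data known. Genes named from a list were up to 4 called between the controls, largest change first, or the 2 most abundant where none was called. The 5 genes most correlated with Spp1 and with mean C1q were named. Pairs among the other 9 genes were planned as a description; their p-values, and the relations with marker sums, were added later. On simulated counts for Ikbkb deletion (15364 genes), 77% of 100 genes changed by 2 on the log2 scale and 98% of 100 changed by 3 were recovered, and 12 unchanged genes were called. The values of 1 complement gene counted among those called are not reported here.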

Additional observations from a re-analysis of the deposited data

Results flagged for a closer look

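In 2 of 40 sets of 4 values (10 genes in 4 groups) the extreme library lay far from its nearest neighbour relative to the range of the group. Chance flags about 1 in 20 groups. Spp1 in Irf1-deleted 2 was at 7299 CPM, while the other libraries of the group were at 4154 to 4583; the gap was 0.864 of the range. Trem2 in Irf1 control 4 was at 81.1 CPM, while the others were at 6.33 to 18.9; the gap was 0.832 of the range. Irf1-deleted 2 had the highest Arg1 and Mrc1 of its group, and Irf1 control 4 the highest C1q, Apoe, Lyz2, Adgre1, Mrc1 and Arg1.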

How the results depend on the processing

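None of the 10 genes passed in either deletion, nor Arg1 in their difference, under any setting run, and RLE scaling, upper-quartile scaling, a prior count of 0.5 and a filter of 5 CPM in 4 libraries changed no call or direction. No paired analysis was possible because the labels give no replicate numbers, and accession order only names the libraries. The fit without both cDC1-richest libraries, the fibroblast covariate and the comparison of the deleted groups were chosen after seeing the data. Genes called between the controls numbered 1199 with no filter, 3146 with DESeq2, 4130 with limma voom, 1069 in the fit of those groups alone and 0 with the fibroblast covariate, beside 2018; between the deleted groups, beside 1376, they numbered 718, 2477, 2990 and 0 without a filter, with DESeq2, with voom and with the covariate. DESeq2 called 38, 6 and 12 genes for Ikbkb deletion, Irf1 deletion and their difference. With limma voom the change of Mrc1 after Ikbkb deletion was −0.23, and after Irf1 deletion C1qa was 0.66, C1qb 0.68, C1qc 0.69, Apoe 0.63, Trem2 0.56, Lyz2 0.36, Mrc1 0.35, Adgre1 0.58 and Arg1 0.29, all reversed, and Apoe was −0.94 between the controls. Without both cDC1-richest libraries the change of Spp1 after Ikbkb deletion was 0.12. With the fibroblast covariate it was 0.046, Mrc1 after Irf1 deletion was 0.00121, and between the controls Spp1 was −0.025, C1qa 0.46, C1qb 0.38, C1qc 0.38, Trem2 0.21 and Lyz2 0.62. The cause of these reversals was not tested. Correlations of Spp1 in the Ikbkb set were 0.89, 0.87 and 0.92 with C1qa, C1qb and C1qc, 0.85 with Apoe, 0.85 with Trem2 and 0.79 with Lyz2; in the Irf1 set they were −0.13, −0.14, −0.13 and −0.16 with C1qa, C1qb, C1qc and Apoe, −0.10 with Adgre1 and 0.43 with Mrc1. For deviations from the group means they were 0.59 with Mrc1 and 0.59 with Arg1. Without the 2 farthest libraries they were −0.082, −0.097 and −0.049 with C1qa, C1qb and C1qc, −0.26 with Adgre1 and 0.53 with Mrc1, and without both cDC1-richest libraries −0.19, −0.18 and −0.14 with C1qa, C1qb and C1qc, −0.12 with Apoe, −0.068 with Trem2, −0.21 with Adgre1 and 0.53 with Mrc1. Leaving out each library in turn gave 0 to 1 genes called for Ikbkb deletion, 0 to 0 for Irf1 deletion, 0 to 1 for their difference, 782 to 2404 between the controls and 110 to 1573 between the deleted groups. The lowest values between the controls came without Irf1 control 3 (782), Irf1 control 2 (850), Ikbkb control 2 (1067), Irf1 control 1 (1180) and Ikbkb control 1 (1342), and between the deleted groups without Irf1-deleted 3 (110), Ikbkb-deleted 2 (458), Irf1-deleted 2 (463), Ikbkb-deleted 3 (602), Irf1-deleted 1 (656) and Ikbkb-deleted 1 (894). Leaving out each library also gave changes after Ikbkb deletion of −0.28 to 0.18 for Spp1, −0.76 to −0.18 for C1qa, −1.0 to −0.31 for C1qb, −0.94 to −0.18 for C1qc, −0.72 to −0.061 for Trem2, −0.60 to −0.077 for Lyz2, −0.93 to −0.36 for Adgre1, 0.66 to 1.52 for Arg1, −0.85 to 0.094 for Apoe and −0.46 to 0.32 for Mrc1; after Irf1 deletion of −0.34 to 0.080 for Spp1, −0.88 to 0.44 for C1qa, −0.86 to 0.48 for C1qb, −0.72 to 0.49 for C1qc, −0.87 to 0.36 for Apoe, −1.03 to 0.42 for Trem2, −1.33 to 0.024 for Lyz2, −0.48 to 0.28 for Mrc1, −0.75 to 0.18 for Adgre1 and −0.69 to 0.29 for Arg1; and between the controls of 0.15 to 0.53 for Spp1, −1.43 to −0.11 for C1qa, −1.50 to −0.16 for C1qb, −1.41 to −0.20 for C1qc, −1.69 to −0.24 for Trem2, −1.45 to −0.096 for Lyz2, −1.38 to −0.46 for Adgre1, 0.58 to 1.07 for Mrc1, −0.60 to 0.63 for Apoe and 3.12 to 3.98 for Arg1. Correlations of Spp1 ran from −0.21 to 0.33 with C1qa, −0.20 to 0.34 with C1qb, −0.16 to 0.36 with C1qc, −0.068 to 0.41 with Apoe, −0.056 to 0.33 with Trem2, −0.34 to −0.06 with Lyz2, 0.58 to 0.71 with Mrc1, −0.24 to 0.29 with Adgre1 and 0.52 to 0.66 with Arg1, and 23 to 24 pairs passed among the other 9 genes; the relation with Mrc1 missed the threshold in 10 of 16 leave-outs.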

Other observations

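Sums of genes listed for cDC2s and for T and NK cells moved with the C1q genes. In bulk libraries it cannot be told whether the listed cDC2 genes, led by Sirpa and Mgl2, came from cDC2s or from macrophages. C1qb rose with the sum of cDC2 genes (r = 0.77, rho = 0.66 over 16 libraries, permutation adjusted p = 0.00355 and 0.0301; 0.70 without the 2 libraries farthest in that sum), with r of 0.77 in the Ikbkb set and 0.87 in the Irf1 set. With the sum of T and NK cell genes C1qb was at 0.66 (rho = 0.79, permutation adjusted p = 0.0256 and 0.0056; 0.64 without the 2 farthest), at 0.22 in the Ikbkb set and 0.90 in the Irf1 set. Lyz2 followed the T and NK sum at 0.82 (rho = 0.83, permutation adjusted p = 0.00133 and 0.00183; 0.85 without the 2 farthest), at 0.21 in the Ikbkb set and 0.97 in the Irf1 set. The relations with T and NK genes thus did not hold in the Ikbkb set, and the difference between the sets was not tested.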
